A study of Macaca mulatta with 18 samples.

Results

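Complex I subunits are described here as the nuclear genes whose array symbol begins with NDUFA, NDUFB, NDUFC, NDUFS or NDUFV followed by a number, together with NDUFAB1. Their assembly factors were not members. This rule uses names only and took 42 of 47323 probes, which stand for 36 of 20046 named genes. They are not all of the known nuclear subunits, and the others were not analysed here. RNA came from vastus lateralis biopsies, a thigh muscle, of male rhesus monkeys (Macaca mulatta) in ongoing studies of the National Institute on Aging. The animals lived in single cages on standard monkey chow. There were 6 young animals of 6.00 ± 0.00 years, 6 middle-aged animals of 16.48 ± 0.31 years and 6 old animals of 26.83 ± 0.22 years (mean ± SEM per age, as labeled). No treatment or genetic change is labeled, and each animal had 1 Sentrix Human HT-12 BeadChip, whose probes are designed on human transcripts.

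Complex I, or NADH:ubiquinone oxidoreductase, is the large entry enzyme of the mitochondrial respiratory chain. In its matrix arm the N module takes electrons from NADH and the Q module hands them over iron-sulfur clusters to ubiquinone, and the membrane arm, with a proximal and a distal part, pumps protons. Its membrane core is encoded by mitochondrial DNA, and all other subunits are imported from the cytosol. The enzyme is abundant in oxidative muscle fibers, and its loss is a common finding in mitochondrial disease. None of the 7 mitochondrial ND genes has a probe under its name here, so only nuclear subunits could be followed.

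The probe intensity on the linear scale, as deposited, had a median of 71 to 97 per array. Between 24.5% and 30.5% of all probes had a detection p under 0.05, against 64.3% to 69.0% of the subunit probes (27 to 29 of 42 on each array). For comparison between arrays, each was converted to Z scores of the log intensity and multiplied by the mean array SD of log2 intensity, so that differences read as log2 differences. The array SD by which this scaling divides was lowest in middle-aged animals. For natural log intensity, young animals had 0.806 to 0.863, middle-aged animals 0.711 to 0.827 and old animals 0.806 to 0.877. This touches every comparison with middle-aged animals. In young animal 6 the 9 tested fibroblast and matrix markers summed to an intensity of 41349. The other 17 animals had 4055 to 19393, and FN1 of the list was detected on no array. On the scaled level all 6 tested muscle fiber markers were below their own means in young animal 6. Their summed intensity in it, 82865, lay within the 56827 to 107164 of the other 17 animals. The 5 tested of 7 erythrocyte markers, hemoglobins included, had sums of 1205 to 2516 in the young animals, 1951 to 6566 in the middle-aged animals and 2888 to 75064 in the old animals, while SLC4A1 and CA1 were detected on no array, and their part in the subunit levels was not tested.

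Detection divided the subunits within every module. Of the 36 genes, 24 had a probe detected on all 18 arrays, 4 on some arrays and 8 on none. In the N module, 6 of 10 genes were detected on all arrays, among them NDUFV1, the flavoprotein that binds NADH, and NDUFV2, which carries an iron-sulfur cluster. NDUFS1, the large iron-sulfur subunit, NDUFS6 and NDUFA6 were detected on none, and NDUFV3 on 1 old array. In the Q module, 3 of 5 genes were detected on all arrays (NDUFS7, NDUFS8 and NDUFA9), NDUFA5 on 13 arrays, and the core subunit NDUFS3 on none.

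The membrane arm showed the same mixture. Of 9 genes of the proximal arm, 6 were detected on all arrays, NDUFC1 on 7, and NDUFC2 and NDUFS5 on none. Of 12 genes of the distal arm, 9 were detected on all arrays, NDUFB1 on 6, and NDUFB4, with 3 probes, and NDUFB10 on none. Probes detected on no array read near the array medians or lower, with NDUFS3 at 48 to 62 and NDUFB10 at 62 to 82 over the 18 animals. Some single readings lay above the array median, such as NDUFS1 at 112 in old animal 4, whose array median was 97. A reading without detection is not evidence that the transcript is missing, and the part played by the match between human probe and monkey transcript was not tested.

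A gene was tested when a probe was detected on at least 6 arrays. This left 27 subunits, 6 of the N module, 4 of the Q module, 7 of the proximal arm and 10 of the distal arm, and all later counts refer to these 27. NDUFC1 and NDUFB1 passed the filter mainly through the ages in which they were bright, so their differences are tied to the filter.

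Within an animal the subunits tended to deviate from their means in the same direction. In young animal 6, 26 of 27 subunits lay below their mean over the 18 animals, with NDUFB1 the exception, and their median deviation was -0.68 on the scaled log2 level. Young animals 4 and 5 stood at the other end, each with 26 of 27 subunits above the mean (NDUFC1 was below in both) and medians of 0.32 and 0.26. Young animals 1, 2 and 3 had medians of 0.13, 0.02 and -0.10. The 6 young animals therefore held both the highest and the lowest of the 18 values.

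In middle-aged animals the median deviation was -0.03, 0.21, 0.24, 0.20, -0.17 and 0.18 in animals 1 to 6. In old animals it was 0.01, -0.11, -0.20, -0.11, -0.10 and -0.05. The 6 old animals thus lay within a narrow band close to or below 0, and 12 to 23 of their 27 subunits were below the mean. The values of the 3 ages overlapped. In young animal 6 each module took part, with medians of -0.72 for N, -0.65 for Q, -0.64 for the proximal and -0.70 for the distal arm.

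**Figure D1:**
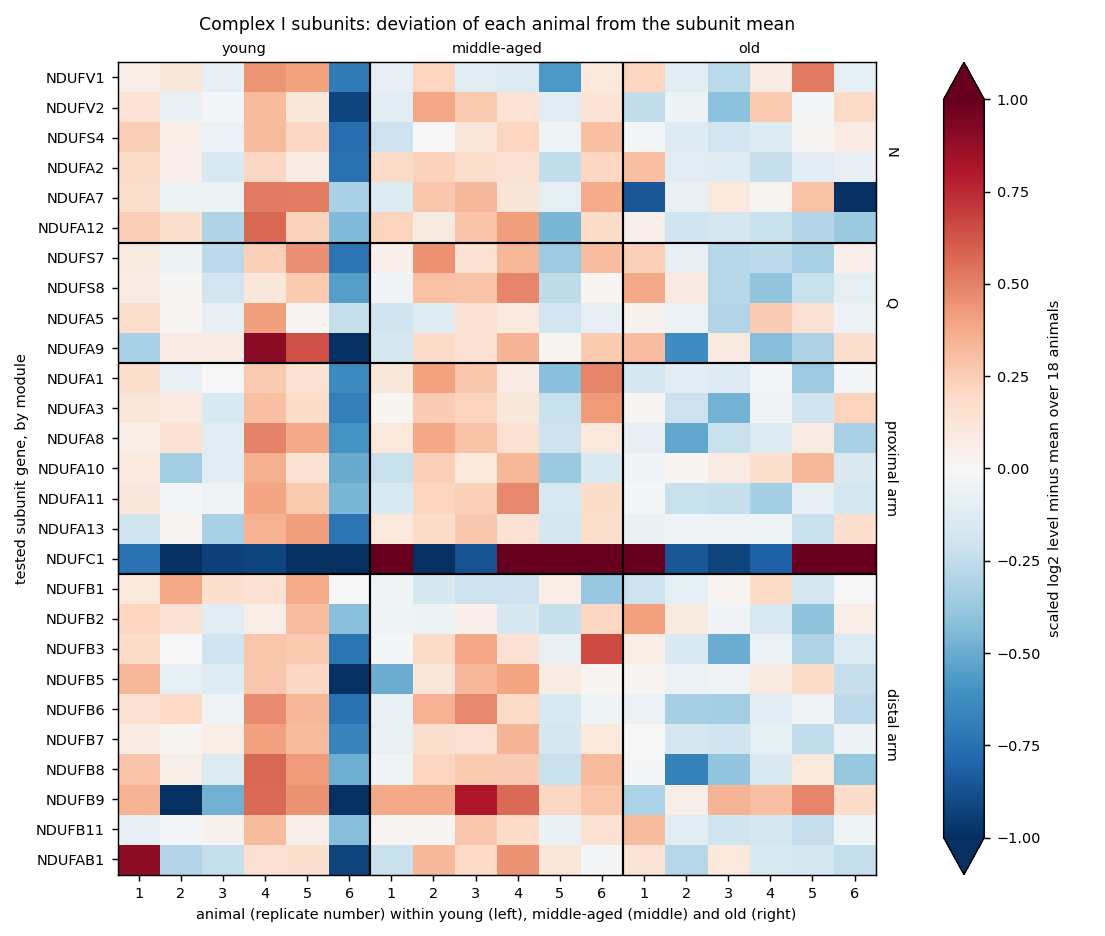
Scaled log2 level of each of the 27 tested subunits (rows, by module) in each of the 18 animals (columns, by age), as the deviation from the subunit's mean; colors end at -1 and 1. Young animal 6 is low in 26 of 27 subunits, and NDUFC1 splits the animals into a bright and a dim group.

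Other respiratory complexes showed the same low animal. In young animal 6 the mean deviation was -0.71 for 3 tested genes of complex II, -0.64 for 5 of complex III, -0.57 for 10 of complex IV and -0.61 for 14 of complex V. For 16 tested assembly factors of complex I, which build the enzyme without being part of it, it was -0.10. In this animal the scores of the matrix, endothelial and macrophage markers were 1.61, 0.90 and 1.06, the highest of the 18, and that of the muscle fiber markers was -0.65, the lowest. In bulk RNA, fewer cells of a type and less RNA per cell cannot be told apart, and the part of these markers in the subunit levels was not tested.

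Slow fiber markers, 7 of 8 of which were tested, ran in the same direction as the subunits in most animals. Their mean deviation was 1.21, -0.59, -1.77, 1.53, 1.39 and -1.45 in young animals 1 to 6. It was -2.61, 2.22, 1.26, -2.21, 0.61 and 2.09 in middle-aged animals 1 to 6 and 0.26, 0.22, -0.11, -0.64, 0.81 and -2.22 in old animals 1 to 6. In 13 of 18 animals this score and the subunit median had the same sign. The sign was opposite in young animal 2, middle-aged animals 4 and 5 and old animals 2 and 5. The 6 tested muscle fiber markers ran with the subunits in more animals than the slow fiber markers. Their score had the opposite sign to the subunit median only in old animal 6, at 0.08 against -0.05. The signs of both marker lists were compared on Z scaled levels only, where each array is divided by its SD. Under Z scaling the slow fiber markers also moved with the subunits between ages. All 7 were below 0 between old and young animals, with a median of -0.30 and of -0.58 without young animal 6, and all 7 were below 0 between old and middle-aged animals, with a median of -0.59. With median centring the value between old and middle-aged animals was -0.13, with 5 of 7 below 0. The subunits were then at 0.11, on the other side of 0. Between middle-aged and young animals the slow fiber median was 0.19 under Z scaling and -0.16 with median centring, beside 0.11 and -0.19 for the subunits. The muscle fiber median was -0.23 and 0.28 between old and middle-aged animals in the same order. It was 0.17 and -0.32 between middle-aged and young animals. Fast fiber markers, 9 of 10 of which were tested, had medians of 0.10 and 0.63 between old and middle-aged animals in that order. Between middle-aged and young animals these were -0.10 and -0.54. Under Z scaling both had the opposite sign to the subunits, with 5 and 4 of 9 markers above 0. Between old and young animals their Z scaled median was -0.06, with 6 of 9 below 0. None passed the adjustment in limma, and the part of these markers in the subunit levels was not tested.

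Within an age most subunits varied more than the median of the genes tested, which were not matched to them for intensity. The within-age SD of the scaled level exceeded the median of all 8589 tested genes, 0.22, for 24 of 27 subunits, and was lower for NDUFA5, NDUFB1 and NDUFB11. Much less of this excess was left without young animal 6: the median SD of the subunits was 0.28 with it and 0.22 without it, where the median of all genes was 0.21 and 18 of 27 subunits exceeded it. The highest animal exceeded the lowest by a median of 2.19-fold over the subunits. This ratio was 1.64 to 2.64 for 22 subunits and above 3 for NDUFA7, NDUFA9, NDUFAB1, NDUFB9 and NDUFC1.

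NDUFC1, a small subunit of the proximal membrane arm, had 2 separate levels. Its intensity was 63, 59, 65, 65, 55 and 67 in young animals 1 to 6, none of them detected. It was 386, 59, 67, 317, 327 and 252 in middle-aged animals 1 to 6 and 259, 66, 67, 78, 429 and 357 in old animals 1 to 6. The probe was thus bright, at 252 to 429, in 4 middle-aged and 3 old animals and dim, at 55 to 78, in 11 others, and no animal lay between 78 and 252.

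The age groups of NDUFC1 still overlapped, because 2 middle-aged and 3 old animals read as low as the young. Since no young array detected it, only bounds can be given. The mean of NDUFC1 was at least 1.46-fold higher in old than in young animals (adjusted p = 0.41, limma). It was at least 1.94-fold higher in middle-aged than in young animals (adjusted p = 0.28), with 3 of 6 old and 4 of 6 middle-aged arrays detecting it. These p-values belong to the differences as read, with the undetected young readings in them, and do not test the bounds. The within-age SD of its scaled level, 1.05, was larger than that of 99.5% of the genes tested.

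NDUFB9, a distal arm subunit with a fold that binds acyl carrier protein, turned on a single animal. It read 3115, 267, 2185, 4486, 3821 and 1460 in young animals 1 to 6. It read 3840, 3140, 4038, 3504, 2773 and 1758 in middle-aged animals 1 to 6, and 1977, 3250, 3633, 4500, 5350 and 3059 in old animals 1 to 6. Young animal 2 lay 5.47-fold below the next animal while all other values overlapped between ages. The log2 difference was 0.79 ± 0.46 between old and young animals (SE, n = 6 each; adjusted p = 0.58, limma), and 0.25 without young animal 2. Between middle-aged and young animals it was 1.05 ± 0.46 (adjusted p = 0.42), and 0.51 without that animal.

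NDUFA7, an accessory subunit of the N module, was low in a pair of old animals. Its intensity was 476, 441, 496, 731, 691 and 461 in young animals 1 to 6 and 466, 548, 549, 477, 409 and 413 in middle-aged animals 1 to 6. In old animals 1 to 6 it was 237, 482, 537, 600, 721 and 228. Old animals 1 and 6 therefore fell 1.73-fold below every other animal, and the remaining 4 lay within the range of the young. The log2 difference was -0.40 ± 0.22 between old and young (adjusted p = 0.52) and -0.41 ± 0.22 between old and middle-aged animals (adjusted p = 0.35).

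NDUFA9, which helps join the Q module to the membrane arm, was spread most among the young. It read 340, 488, 552, 976, 770 and 217 in young animals 1 to 6, and ranged from 392 to 560 in middle-aged and from 330 to 561 in old animals. The young values enclosed those of both other ages. The log2 difference between old and young animals was -0.13 ± 0.28 (adjusted p = 0.92).

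NDUFAB1 is the mitochondrial acyl carrier protein, which also serves fatty acid synthesis and is counted here with the distal arm. It read 402, 196, 219, 286, 278 and 149 in young animals 1 to 6, 226, 301, 268, 311, 248 and 185 in middle-aged animals 1 to 6, and 244, 207, 277, 263, 252 and 218 in old animals 1 to 6. The highest and the lowest animal were both young, and the ages overlapped. The log2 difference was -0.06 ± 0.21 between old and young (adjusted p = 0.96), -0.24 ± 0.21 between old and middle-aged (adjusted p = 0.60) and 0.18 ± 0.21 between middle-aged and young animals (adjusted p = 0.80). Without young animal 1 the old and young difference was 0.13.

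NDUFB1, a small distal arm subunit, was dim throughout. It read 88, 121, 109, 106, 122 and 107 in young animals 1 to 6, 98, 87, 81, 78, 93 and 65 in middle-aged animals 1 to 6, and 73, 88, 100, 124, 91 and 100 in old animals 1 to 6. The probe was detected on 5 young arrays, on 0 middle-aged arrays and on 1 old array, and the values overlapped between each pair of ages. Its log2 difference was -0.24 ± 0.09 between old and young animals (adjusted p = 0.35). With no middle-aged array detecting it, it was at least 1.02-fold lower in middle-aged than in young animals (adjusted p = 0.20 for the difference as read, not for the bound). Because 5 of its 6 detections were in young animals, which carried it through the filter, these p-values are not independent of the filter.

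**Figure D2:**
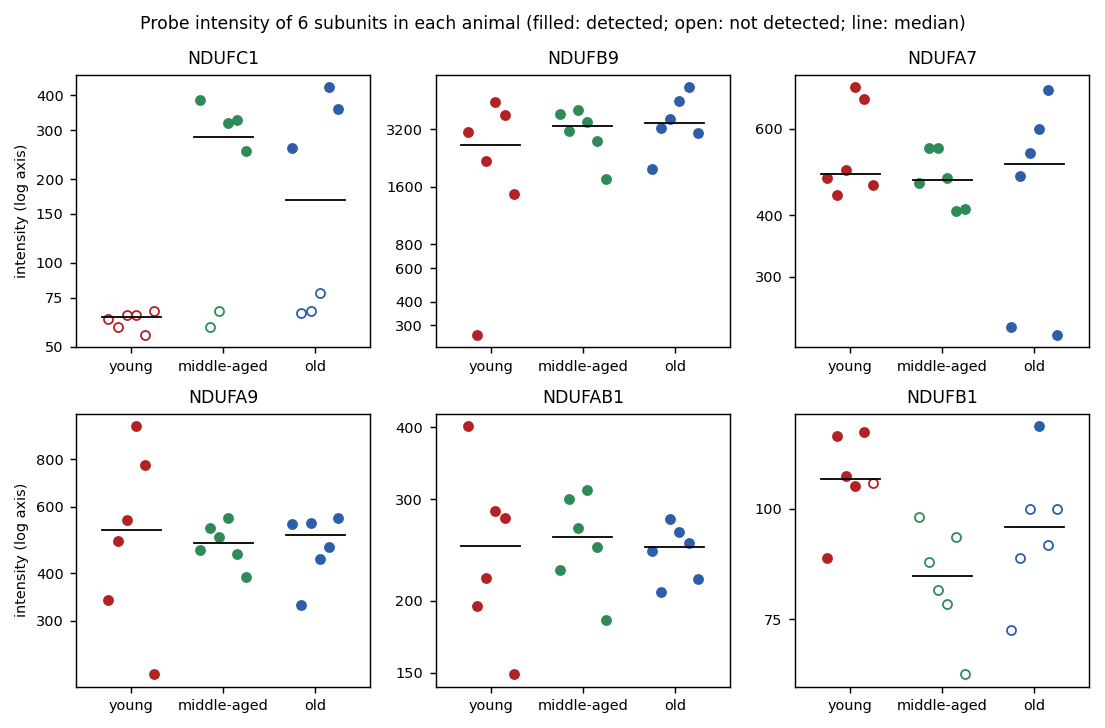
Deposited probe intensity (log axis) of 6 subunits in the young, middle-aged and old animals, drawn from animal 1 on the left to animal 6 on the right in each age, filled where detected, with the median as a line. NDUFC1 is open, not detected, in all 6 young animals, NDUFB9 has a single value of 267 in young animal 2, and NDUFA7 has 2 old values of 237 and 228.

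Old against young animals addressed whether the subunits differ between the ends of adult life. None of the 27 subunits passed an adjusted p of 0.05 in limma, where 0.0931% of all genes did. Differences were above 0 for 8 and below 0 for 19, with a median of -0.06, against -0.01 over all genes. At an unadjusted p under 0.05, 1 subunit was higher (NDUFC1), where 5.27% of all genes were, and 2 were lower (NDUFB1 and NDUFB8), where 5.69% of all genes were. Of these 3, NDUFC1 and NDUFB1 passed the filter mainly through the ages in which they were bright, and NDUFB8 alone was detected on all 18 arrays. NDUFC1 was not among them without old animal 1, 5 or 6 or young animal 2 or 5, and of the 2 lower subunits 1 was left without old animal 1, 2, 3 or 6 or young animal 1, 2 or 4 and 0 without young animal 5. No subunit had groups without overlap, against 0.862% of all genes. The standard errors of the subunits ranged from 0.09 to 0.55 with a median of 0.15.

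NDUFB8, a distal arm subunit often used as a protein marker of an assembled complex, illustrates the size of these differences. Its intensity was 4014, 3221, 3592, 5463, 6859 and 3403 in old animals 1 to 6, against 4938, 4275, 4657, 7521, 6234 and 4305 in young animals 1 to 6. On this unscaled intensity 4 of the old animals read below every young animal, and the other 2 lay within the young range. On the scaled level only old animal 2, at 4.74, was below every young animal. The lowest young value there was 4.92, in young animal 6. The log2 difference was -0.37 ± 0.17 (adjusted p = 0.43).

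Among the other named subunits, NDUFA12, an N module subunit, differed by -0.28 ± 0.16 between old and young animals (adjusted p = 0.57). NDUFA10, a proximal arm subunit related to nucleoside kinases, differed by 0.13 ± 0.15 (adjusted p = 0.84) and NDUFB5 of the distal arm by 0.06 ± 0.19 (adjusted p = 0.95). NDUFA10 depended on its probe: the log2 difference was 0.13 for the probe detected on all 18 arrays and -0.24 for the probe detected on 12. NDUFB3 and NDUFB6, also with 2 detected probes, had the same sign with both, at -0.14 and -0.07 for NDUFB3 and -0.25 and -0.18 for NDUFB6.

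By module the median difference between old and young animals was -0.03 for N (3 of 6 below 0), -0.06 for Q (4 of 4), -0.09 for the proximal arm (4 of 7) and -0.10 for the distal arm (8 of 10). Young animal 6 weighed heavily on these values. Without it the median over all subunits was -0.22, 24 of 27 lay below 0, and the modules were at -0.18, -0.17, -0.23 and -0.26 for N, Q, proximal and distal arm. At an unadjusted p under 0.05, 10 subunits were then lower, where 7.14% of all genes were, and still 0 passed the adjustment. Without young animal 4, in contrast, the median was -0.01, with 16 of 27 below 0, and without young animal 5 it was -0.02. The median was also -0.03 without old animal 3, -0.04 without young animal 1, -0.10 without young animal 3 and -0.12 without old animal 1.

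**Figure D3:**
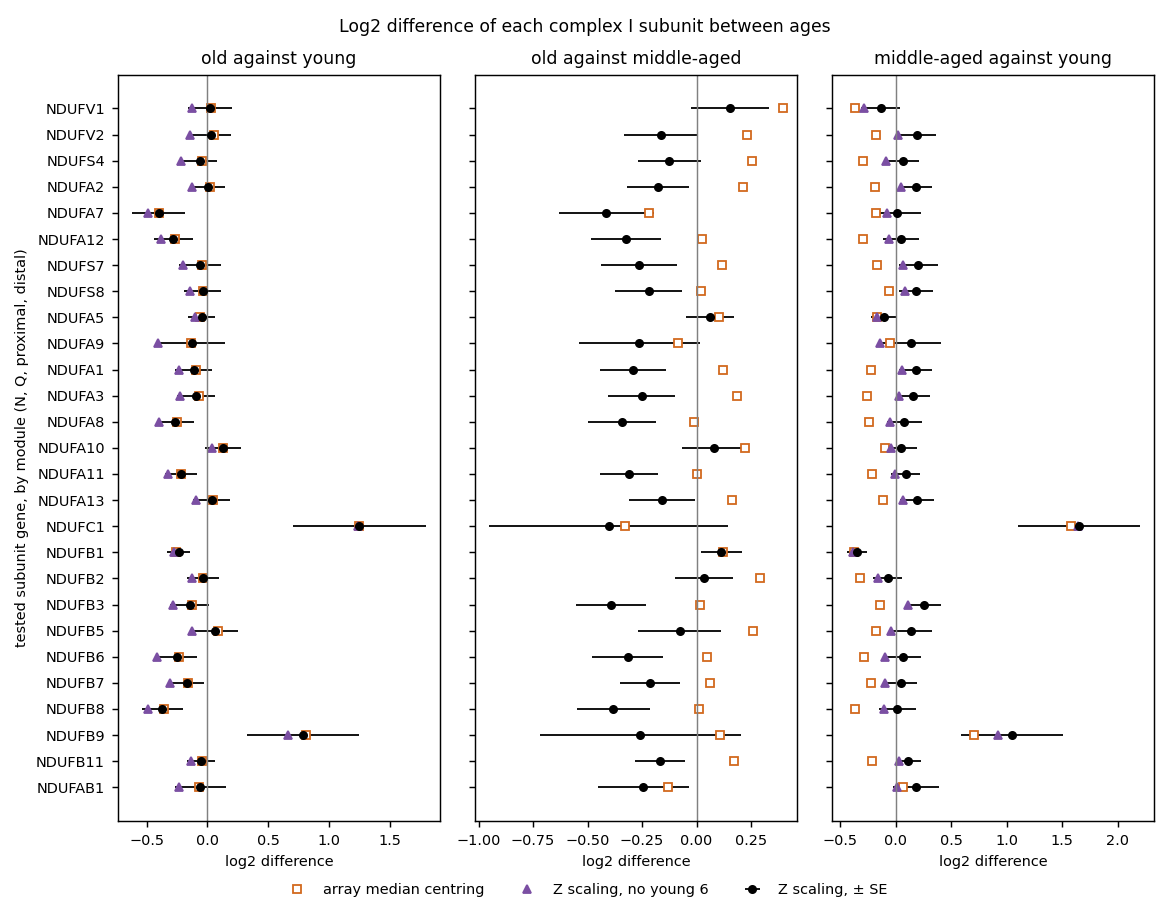
Log2 difference of each of the 27 subunits in the 3 comparisons, as black points with SE from the Z scaled values, as open squares with arrays centred on the median, and as triangles without young animal 6. For old against young the points and squares nearly coincide and the triangles lie lower, while in both comparisons with middle-aged animals most squares lie on the other side of 0 from the points.

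Old against middle-aged animals gave values below 0 for most subunits, in a direction that depended on the scaling. None passed an adjusted p of 0.05 in limma, where 0.652% of all genes did, and none had groups without overlap, against 1.75% of all genes. Differences were below 0 for 22 and above 0 for 5, with a median of -0.24 against 0.02 over all genes, and quantile normalization gave a median of -0.16, but with the arrays centred on their median and not divided by their SD, 22 were above 0 with a median of 0.11. That centring also moved all genes by 0.10 to a median of 0.13, so that relative to all genes the subunits lay at -0.02 with it and at -0.27 under Z scaling. The slow fiber markers lay at -0.26 and -0.62 by the same measure, and their part was not tested. At an unadjusted p under 0.05, 0 subunits were higher, where 9.24% of all genes were, and 4 were lower, where 7.22% were. The 4 became 1 without middle-aged animal 2, 3, 4 or 6, 2 without old animal 2, 3 or 6, 6 without old animal 1, and 8 without middle-aged animal 5 or young animal 6.

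These 4 lower subunits came from the membrane arm. NDUFB3, a distal arm subunit, read 4712, 5233, 3717, 6508, 5644 and 4419 in old animals 1 to 6 and 5381, 4941, 5430, 4729, 4140 and 3701 in middle-aged animals 1 to 6. On this linear scale, before any scaling between arrays, the highest values were those of old animals. The log2 difference was -0.39 ± 0.16 (adjusted p = 0.23), and 0.02 with median centring.

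NDUFB8 differed by -0.38 ± 0.17 between old and middle-aged animals (adjusted p = 0.26), NDUFA11 by -0.31 ± 0.13 (adjusted p = 0.25) and NDUFA8 by -0.34 ± 0.15 (adjusted p = 0.28). With median centring they differed by 0.01 for NDUFB8, less than 0.01 in size for NDUFA11 and -0.01 for NDUFA8. Above 0 were NDUFV1 at 0.16 ± 0.18 (adjusted p = 0.72), NDUFA10 at 0.08 ± 0.15 (adjusted p = 0.84) and NDUFA5 at 0.06 ± 0.11 (adjusted p = 0.84). NDUFB1, detected on 1 old and 0 middle-aged arrays, has no measurable difference here. NDUFV1, NDUFA7, NDUFA5, NDUFA9, NDUFA8, NDUFA10, NDUFC1, NDUFB1, NDUFB2 and NDUFAB1 were the 10 of 27 with the same sign under Z scaling and median centring.

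By module, the median between old and middle-aged animals was -0.17 for N, -0.24 for Q, -0.29 for the proximal arm and -0.23 for the distal arm, and with median centring 0.22, 0.06, 0.12 and 0.08. All genes had a median of 0.13 with that centring, and relative to it the modules lay at 0.09 for N, -0.07 for Q, less than 0.01 in size for the proximal arm and -0.04 for the distal arm, against -0.19, -0.26, -0.31 and -0.25 under Z scaling. Relative to all genes only the N module was thus on the other side of 0 with median centring.

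Middle-aged against young animals had the reverse pattern and the same dependence. None of the 27 passed an adjusted p of 0.05, where 0.0233% of all genes did, and none had groups without overlap, against 0.815% of all genes. Under Z scaling 23 were above 0 and 4 below, with a median of 0.11 against -0.03 over all genes, and quantile normalization gave 0.08, but with median centring 24 were below 0 with a median of -0.19. All genes moved by -0.11 with that centring, to a median of -0.14, and relative to them the subunits lay at -0.05, against 0.14 under Z scaling. Without young animal 6 the Z scaled median was -0.04, with 12 above 0 and 15 below, and without young animal 4 it was 0.18.

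At an unadjusted p under 0.05, 2 subunits were higher in middle-aged animals (NDUFC1 and NDUFB9), where 4.2% of all genes were, and 1 was lower (NDUFB1), where 6.9% were. NDUFC1 and NDUFB1 are tied to the filter here too. The 2 became 1 without young animal 2 or 6 or middle-aged animal 3 or 4. NDUFB3 differed by 0.25 ± 0.16 (adjusted p = 0.61) and NDUFA2, an N module subunit, by 0.18 ± 0.14 (adjusted p = 0.68). Below 0 were NDUFV1 at -0.14 ± 0.18 (adjusted p = 0.83), NDUFA5 at -0.11 ± 0.11 (adjusted p = 0.77) and NDUFB2 at -0.07 ± 0.13 (adjusted p = 0.88). NDUFB8 differed by 0.01 ± 0.17 (adjusted p = 0.99). Only NDUFV1, NDUFA5, NDUFC1, NDUFB1, NDUFB2, NDUFB9 and NDUFAB1, 7 of 27, had the same sign under Z scaling and median centring.

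By module, the Z scaled median was 0.05 for N, 0.16 for Q, 0.16 for the proximal arm and 0.09 for the distal arm between middle-aged and young animals. With median centring it was -0.24, -0.11, -0.21 and -0.22, or -0.10, 0.03, -0.08 and -0.08 relative to the median of all genes, against 0.08, 0.18, 0.18 and 0.12 under Z scaling.

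**Figure D4:**
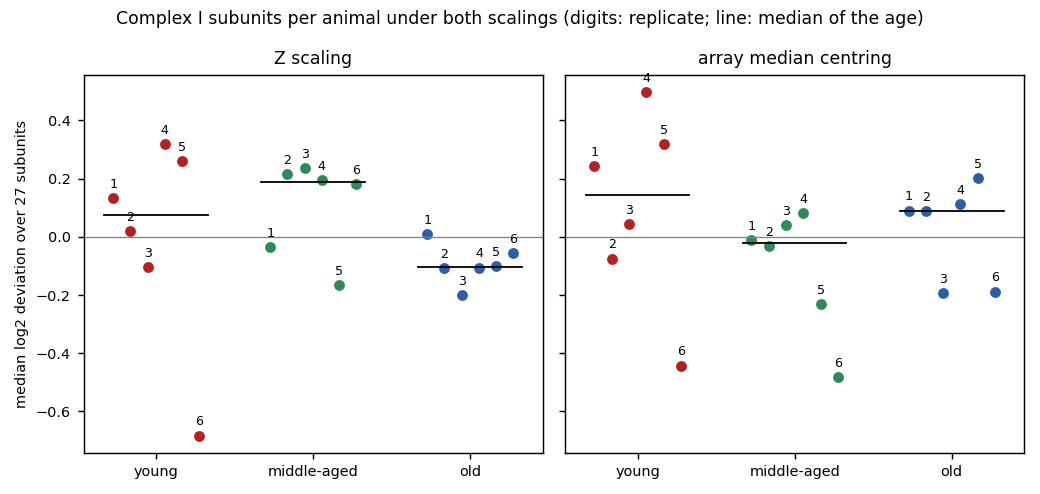
Median deviation of the 27 subunits from their means in each animal, in young, middle-aged and old animals, with Z scaling on the left and median centring on the right; the line is the median of the age and digits name the animal. Young animal 6 is lowest under Z scaling at -0.68, and middle-aged animal 6 is at 0.18 under Z scaling and at -0.48 with median centring.

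Under median centring middle-aged animal 6, whose array had the smallest SD of natural log intensity, 0.711, became the lowest of the 18 at -0.48, where Z scaling placed it at 0.18. Young animal 6 was at -0.44 with median centring and remained low in 26 of 27 subunits. Old animals then ranged from -0.19 to 0.20, again inside the range of the young animals.

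The other genes of oxidative phosphorylation were read in the same fit from lists of the pathway. None of 16 tested assembly factors of complex I, 3 genes of complex II, 5 of complex III, 10 of complex IV and 14 of complex V passed the adjustment in any comparison with all 18 animals. Between old and young animals the medians were -0.01 for the assembly factors, -0.05 for complex II, 0.01 for complex III, less than 0.01 in size for complex IV and -0.09 for complex V, where 11 of 14 genes were below 0. Without young animal 6 the medians were -0.04, -0.23, -0.14, -0.12 and -0.24 in the same order, beside -0.22 for the complex I subunits. In that fit 1 assembly factor passed and was higher in old animals, where 0.326% of all genes were: NDUFAF7, a methyltransferase, at 0.59 ± 0.12 (adjusted p = 0.03, limma, n = 6 old and 5 young). With all animals it was at 0.47 ± 0.14 (adjusted p = 0.19).

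Between old and middle-aged animals the Z scaled medians were -0.11 for complex III, -0.15 for complex IV and -0.24 for complex V, and with median centring they were 0.07, 0.17 and 0.11. Relative to the median of all genes they lay at -0.13, -0.18 and -0.26 under Z scaling and at -0.06, 0.04 and -0.02 with median centring. Among the assembly factors, 3 had an unadjusted p under 0.05 between old and young animals: NDUFAF7, which was above 0, FOXRED1 at -0.30 ± 0.10 (adjusted p = 0.26) and COA1 at -0.18 ± 0.08 (adjusted p = 0.41). Between old and middle-aged animals these were ACAD9 at 0.36 ± 0.13 (adjusted p = 0.18), NDUFAF7 at 0.33 ± 0.14 (adjusted p = 0.25) and COA1 at -0.18 ± 0.08 (adjusted p = 0.26). Among 9 tested factors of mitochondrial biogenesis, TFB2M, a mitochondrial transcription factor, differed by 0.40 ± 0.10 between old and young animals (adjusted p = 0.11). TFB1M, which methylates mitochondrial ribosomal RNA, differed by -0.41 ± 0.12 between old and young animals (adjusted p = 0.19) and by -0.46 ± 0.12 between old and middle-aged animals (adjusted p = 0.08).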

How the data were processed

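RNA of 18 animals was measured on 1 array each. Per the labels, arrays were read with GenomeStudio 2011.1. The authors deposited the probe intensity without normalization, with a detection p-value per probe, and separately a Z score, computed on the natural log scale within each array. Whether background was subtracted is not given in the sources used here. Z scores were recomputed from the intensities (largest difference from the deposited ones 0.0184) and multiplied by 1.19, the mean array SD of log2 intensity. Of 47323 probes, 30113 carry 1 symbol, 8 several and 17202 none. Genes entered the test with their brightest probe among those detected (p under 0.05) on 6 or more arrays, which gave 8589 genes.

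The 3 ages were fitted together with limma 3.58.1 in R 4.3.3. Its p-values were adjusted by Benjamini-Hochberg across the 8589 genes and called under 0.05. The fit was checked on simulated levels drawn independently for each gene. These had no deviations shared within an animal and no differences in array SD, so the check does not cover either. Tables and plots used Python 3.11.15, pandas 2.3.3, numpy 2.4.6 and matplotlib 3.10.9. Animal scores are means, for subunits medians, of deviations from each gene's mean. For a probe not detected in an age, the bound sets the bright age's mean against the dim age's mean of, per array, the higher of the lowest detected signal and the probe's own. The members, modules and gene lists were chosen with earlier results of these data known.

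Subunits are named by a rule: the 4 smallest p above 0 and the 4 below 0 in each comparison, NDUFAB1, NDUFB8, subunits detected on some arrays only, subunits whose probes differ in sign, and subunits in which an animal stands apart. NDUFA7, NDUFA9 and NDUFB9 are also described because their values were seen to be widely spread. Alternatives were quantile normalization, neqc with an offset of 16, median centring, the deposited Z scores, no filter, a detection p under 0.01, detection on all 18 arrays, the mean of a gene's probes, array weights, the replicate block, only the 2 ages compared, 15 animals, each animal left out in turn, and the methods' t-test. Median centring without young animal 6 was added after the data were seen. The replicate numbers did not pair the animals, with correlations of same-numbered deviations from -0.26 to 0.22.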

Additional observations from a re-analysis of the deposited data

Results flagged for a closer look

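Dixon's criterion for an animal far from the others of its age was applied to 84 sets of 6 values, the 27 subunits and their median in the 3 ages. It marked 10, all of them in young animal 6, middle-aged animal 5 or old animal 1. Chance marks about 1 in 20 of independent sets. The subunits of an animal tended to deviate together, so that rate gives no expected count here. The value given is the gap to the nearest animal as a share of the whole range, on the scaled level, and the critical value is the one for 6 samples at 95%.

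Young animal 6 was lowest and apart in 5 subunits, namely NDUFV2 (0.689), NDUFS4 (0.649), NDUFA1 (0.6253), NDUFB5 (0.659) and NDUFB7 (0.637). NDUFV2 read 3132 in it and 3893 to 6225 in the other young animals. NDUFB5 read 1569 in it and 2145 to 3285 in the others. For NDUFA1 this holds on the scaled level only, as it read 4750 in young animal 6 and 4730 to 7387 in the others.

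Middle-aged animal 5 was lowest and apart in NDUFA2 (0.836), NDUFA12 (0.63) and NDUFA13 (0.639). These hold on the scaled level only: NDUFA2 read 3337 in it, within the 2599 to 5598 of the other middle-aged animals. Old animal 1 was highest and apart in NDUFA2 (0.712) and NDUFB11 (0.663), where its unscaled readings of 5004 and 3011 also lay within those of the other old animals. No cause was tested.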

How the results depend on the processing

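No subunit passed an adjusted p of 0.05 in any of the 3 comparisons under any limma alternative or with any animal left out. The methods' t-test at the methods' thresholds passed 2 subunits between old and middle-aged animals (NDUFB3 and NDUFB8, both lower), where 493 of 8589 genes passed. Between middle-aged and young animals it passed 1 (NDUFC1, higher), where 405 of all genes passed. Between old and young animals it passed 0, where 384 of all genes passed. After Benjamini-Hochberg adjustment 0 subunits passed in each, where 51, 7 and 0 of all genes did in the same order. With the replicate block the counts were also 0 and the medians were -0.06, -0.24 and 0.11 for old against young, old against middle-aged and middle-aged against young. The block changed no call.

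Median centring moved the median to 0.11 between old and middle-aged and to -0.19 between middle-aged and young animals, and to 0.11 and -0.31 without young animal 6 as well, while it moved all genes by 0.10 and -0.11 with all animals. With each animal left out, the median ran from -0.22 to -0.01 for old against young, from -0.28 to -0.18 for old against middle-aged and from -0.04 to 0.18 for middle-aged against young. Under the other alternatives the old and young median ran from -0.23 to -0.05. The value of -0.23 came with 15 animals, where young animal 6 and old animals 1 and 2 were left out.

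Single subunits reversed as follows. Between old and young animals NDUFA10 was at -0.056 with the mean of its probes, and NDUFB5 at -0.064 with array weights, -0.12 with 15 animals and -0.081 with median centring without young animal 6. Left-out animals moved NDUFB5 from -0.13 to 0.14 and NDUFAB1 from -0.24 to 0.13. Between old and middle-aged animals median centring, with or without young animal 6, put NDUFB3 at 0.016, NDUFB8 at 0.010 and NDUFA11 at 0.00057. Between middle-aged and young animals it put NDUFB3 at -0.14, NDUFA2 at -0.19 and NDUFB8 at -0.37, and without young animal 6 also at -0.25, -0.29 and -0.46, with NDUFAB1 at -0.11. NDUFB8, at 0.01 in the fit reported, was at -0.062 with quantile normalization, -0.063 with neqc, -0.057 with array weights and -0.11 with 15 animals, and from -0.11 to 0.10 with animals left out. The cause was not tested. Precision is limited by 6 arrays per age, and subunits detected on under 6 arrays could not be tested.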
